A study of Mus musculus with 272 samples.

Results

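The genes described here are the mouse genes named Zfp and a number, which encode proteins of the zinc finger class. A gene was included when its mean in the 4 transcriptome libraries of at least 1 stage was 10 CPM or more (reads of the gene per 1 M reads of the library). Of 318 such symbols, 230 passed and 88 did not, among 15771 distinct rows in the expression table. Because transcriptome levels chose the genes, those levels are given below as a description, without a test. The nearest genes outside the threshold were Zfp790, just under 10 CPM in GV oocytes, and Zfp422, at 9.98 CPM in morulae. The nearest inside were Zfp142, at 10.2 CPM in 2-cell embryos, and Zfp819, at 10.2 CPM in 4-cell embryos.

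The samples were GV (germinal vesicle) oocytes, MII (metaphase II) oocytes, zygotes, 2-cell, 4-cell and 8-cell embryos, morulae and blastocysts of the mouse. Strain, age and culture are not given in the sources used here, and no group carried a mutation or drug treatment that the labels name, other than the cycloheximide in every lysis buffer and gradient. For each stage, 4 pools of 20 oocytes or embryos gave transcriptome libraries, and 3 lysates of about 100 oocytes or embryos were spun through sucrose gradients and cut into 10 fractions, each sequenced on its own from poly(A) RNA. Fractions 6 to 10 are called heavy and fractions 1 to 5 light throughout. The labels number the fractions without saying which end is which, so heavy and light follow the usual order of collection. Each library is a pool of whole oocytes or embryos, so fewer cells of a type and less RNA per cell cannot be told apart, and every CPM is a share of its own library.

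Transcriptome libraries held 11.2 to 24.3 M reads and fraction libraries 0.0102 to 43.2 M. The labels of the stages were checked against marker genes. The summed CPM of 6 oocyte markers ran from 15823 to 18641 in GV libraries and from 6.10 to 11.2 in blastocysts. The sum of 5 markers of the 2-cell stage ran from 1825 to 2452 in 2-cell libraries and reached 197 at most elsewhere, and that of 8 blastocyst markers ran from 2546 to 3100 in blastocysts and reached 413 at most elsewhere. Of 11 cumulus and granulosa markers, 4 were in the table. Their sum was 40.9 to 44.8 CPM in GV, 60.1 to 69.7 in MII and 48.1 to 60.2 in zygote libraries, against 0.0686 to 0.361 in 4-cell embryos, and 3 of the 4 reached 1 CPM on average in GV oocytes and 1 in MII oocytes and zygotes. The part of such cells in the values below was not tested. Whether the pools of a stage were independent collections is not given in the sources used here, so p-values measure only the spread between these samples, which may be technical.

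A C2H2 zinc finger is a short fold in which a pair of cysteines and a pair of histidines hold a zinc ion, and a row of such fingers reads a stretch of DNA, a few bases per finger. Many Zfp proteins also carry a KRAB domain, which recruits Trim28 and through it the histone methyltransferase Setdb1, and so places repressive chromatin on retrotransposons and on imprinted control regions. In oocytes and early embryos this system is best known through Zfp57, which keeps parental imprints methylated after fertilization. A smaller number of Zfp proteins use their fingers to bind RNA or other proteins.

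In a sucrose gradient, transcripts that carry many ribosomes sink towards the heavy end and transcripts with few or none stay near the top. The finger itself can be read in the coding sequence. The first finger found by its codon pattern is shown for 4 genes on which the gradient results turn: Zfp616 and Zfp449, which lay on the heavy side in GV oocytes, MII oocytes and zygotes, and Zfp131 and Zfp9, which lay on the light side from the 8-cell embryo to the blastocyst. Each is 63 bases of GENCODE M21 coding sequence, 5′ to 3′, and capitals mark the codons of the 2 cysteines and 2 histidines. They span codons 454 to 474 of Zfp616, 325 to 345 of Zfp449, 263 to 283 of Zfp131 and 119 to 139 of Zfp9.
Zfp616: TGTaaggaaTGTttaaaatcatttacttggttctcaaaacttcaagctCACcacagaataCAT
Zfp449: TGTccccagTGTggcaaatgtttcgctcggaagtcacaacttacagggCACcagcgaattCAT
Zfp131: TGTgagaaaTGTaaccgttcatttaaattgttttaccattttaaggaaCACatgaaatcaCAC
Zfp9: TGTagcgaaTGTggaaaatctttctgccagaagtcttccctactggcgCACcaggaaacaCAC
The pattern occurred 18 times in Zfp616, 7 times in Zfp449, 5 times in Zfp131 and 12 times in Zfp9. Coding sequences were matched for 225 of the 230 genes. The median number of finger patterns was 10, and 155 genes had 8 or more. Zfp142 had the most, 36. The pattern was not found in 5 genes, Zfp839, Zfp330, Zfp750, Zfp957 and Zfp781.

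Most Zfp genes were either maternal, highest up to the zygote and lower in the 4-cell embryo, or embryonic, highest from the 4-cell embryo on and lower in the zygote. Classes were set from the log2 of the stage means plus 1. The maternal class, with its peak in GV oocytes, MII oocytes or zygotes and a 4-cell level at least 1 lower, held 73 genes (31.7% of the 230, against 28.7% of the 10769 genes of the table at the same threshold). The embryonic class, with its peak from the 4-cell embryo on and a zygote level at least 1 lower, held 84 genes (36.5% against 48.3%). The 2-cell class, at least 1 higher in 2-cell embryos than in both zygotes and 4-cell embryos, held 17 genes (7.39% against 5.18%). Only Zfp748 varied by less than 1 over all stages, and 55 genes (23.9% against 17.0%) met none of these rules.

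Peaks were spread unevenly over the stages. The 2-cell embryo was the peak of 55 genes (23.9%, against 14.7% of all genes at the threshold) and the GV oocyte of 40 (17.4% against 14.3%). The blastocyst was the peak of 36 (15.7% against 26.8%) and the 8-cell embryo of 4 (1.74% against 5.66%). Of the 55 genes outside the classes, 38 peaked in 2-cell embryos, and 21 of these were at least 1 lower in 4-cell embryos. Their zygote level kept them out of the 2-cell class.

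The median maternal gene stood at 29.3 CPM in GV oocytes, 24.96 in MII oocytes, 23.9 in zygotes and 14.3 in 2-cell embryos, and at 3.60 in 4-cell embryos. The median embryonic gene was at 2.39 CPM in zygotes, 8.05 at 2 cells, 20.8 at 4 cells and 19.4 in blastocysts, and 30 of the 84 were under 1 CPM in zygotes. A class says where a gene was highest, not that it was absent elsewhere: 19 of the 73 maternal genes were still at 10 CPM or more in 4-cell embryos, and 16 of the 84 embryonic genes were already at that level in zygotes. The median of the 2-cell class went from 15.6 CPM in zygotes to 58.0 in 2-cell embryos and 13.7 in 4-cell embryos. The heat map by class shows both handovers, one into and one out of the 2-cell embryo.

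**Figure D1:**
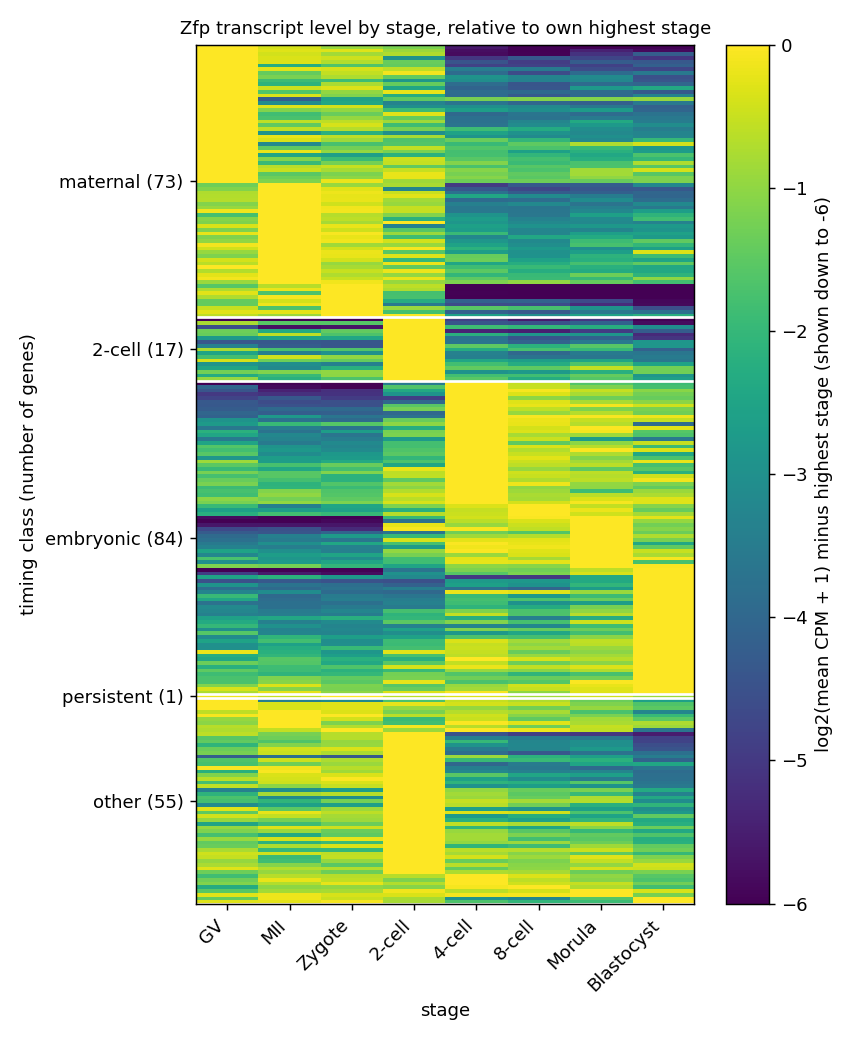
Transcriptome level of the 230 Zfp genes (rows, grouped by timing class) at the 8 stages (columns), as log2 of the mean CPM plus 1 minus the value at the gene's own highest stage, with colours cut at -6. The 73 maternal genes are high up to the zygote or 2-cell embryo, and the 84 embryonic genes from the 4-cell embryo on.

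Among maternal genes, Zfp735, Zfp616, Zfp57 and Zfp957 had the widest range. Zfp735 read 257, 284, 337 and 338 CPM in the GV libraries and 821, 833, 933 and 1030 in the zygotes (904.3 ± 97.7, SD, n = 4). It was still at 370, 640, 678 and 719 CPM in 2-cell embryos, then at 0.155, 0.214, 0.343 and 2.13 in 4-cell embryos. No 4-cell library came near any earlier one. Zfp616 behaved alike, with 280, 291, 333 and 397 CPM in zygotes, 143, 164, 236 and 245 at 2 cells and 0.103, 0.891, 1.06 and 2.09 at 4 cells. It was at 0 in all 4 blastocyst libraries. Zfp957, without a finger pattern of the kind searched, was at 183.6 ± 19.0 CPM in zygotes, with libraries from 165 to 209, and between 0.343 and 2.12 in 4-cell embryos.

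Zfp57, the guardian of imprints, was lower in MII oocytes and higher again in zygotes before it fell. Its GV libraries held 1016, 1075, 1089 and 1170 CPM, and its MII libraries 387, 398, 410 and 459. The zygotes held 842, 1078, 1415 and 1921 CPM (1314 ± 468), all above every MII library. The 2-cell embryos held 279, 326, 383 and 553 CPM, close to the MII level. The 4-cell embryos held 14.6, 16.4, 22.0 and 27.2 CPM, and the blastocysts 6.72 to 13.7.

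In the 2-cell class, Zfp54, Zfp951, Zfp566 and Zfp709 had the widest range. Zfp54 was at 1.40, 1.77, 2.22 and 3.22 CPM in zygotes and at 259, 350, 492 and 568 in 2-cell embryos (417 ± 139). It was back at 9.19, 10.2, 12.2 and 23.2 CPM in 4-cell embryos, above every zygote library. Zfp566 was at 0, 0.111, 0.117 and 0.394 CPM in zygotes and at 51.3, 52.9, 63.1 and 64.6 in 2-cell embryos. Zfp951 and Zfp709, in contrast, were already present in the oocyte, at 399 to 460 and 35.3 to 40.2 CPM. Zfp951 went from 224, 235, 245 and 275 CPM in zygotes to 476, 722, 740 and 983 in 2-cell embryos and 16.2 to 51.2 in 4-cell embryos. Zfp709 went from 93.9 ± 15.4 CPM in 2-cell embryos to between 0.671 and 2.25 in 4-cell embryos, without overlap.

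**Figure D2:**
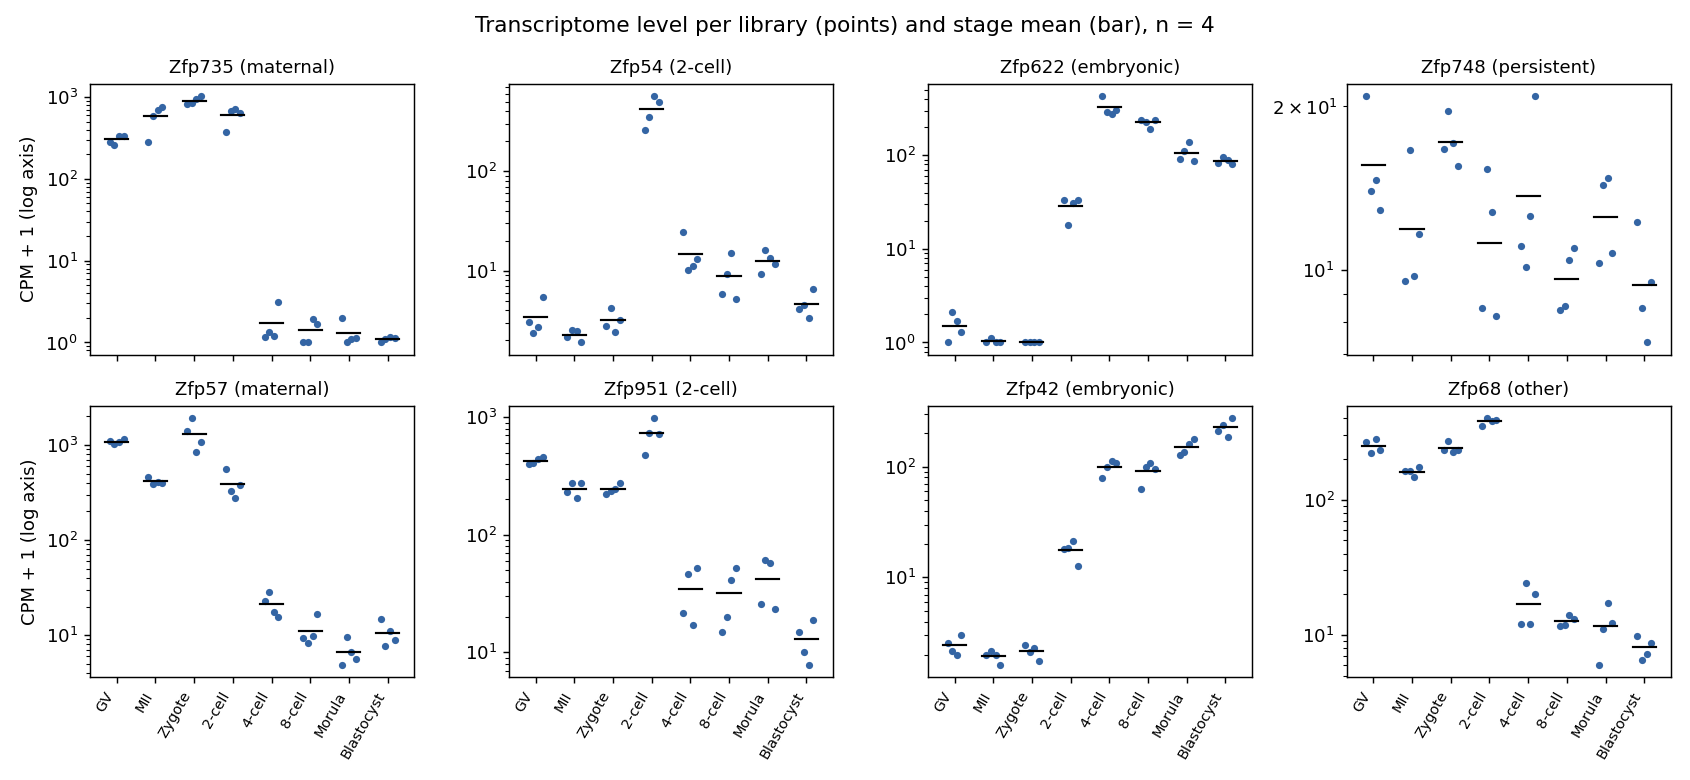
CPM plus 1 (log axis) of 8 Zfp genes in each of the 4 transcriptome libraries of each stage, with a bar at the mean. Zfp735 and Zfp57 fall between the 2-cell and 4-cell embryo, and Zfp54 and Zfp951 peak at 2 cells. Zfp622 and Zfp42 are higher after the zygote, and Zfp748 varies little. Zfp68 has a mean of 378.6 CPM at 2 cells and 16.1 at 4 cells.

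The embryonic genes with the widest range were Zfp622, Zfp42, Zfp637 and Zfp239. Zfp622, a cytoplasmic factor for maturation of the large ribosomal subunit, was at 0 in all 4 zygote libraries, at 17.1, 30.0, 32.3 and 32.7 CPM in 2-cell embryos and at 278, 287, 304 and 429.8 in 4-cell embryos. Zfp42, also named Rex1 and a marker of naive pluripotent cells, was higher at each later stage named here, without overlap. It went from 0.778, 1.14, 1.28 and 1.48 CPM in zygotes to 11.6, 17.2, 17.2 and 20.1 at 2 cells and 77.4, 98.5, 107 and 112 at 4 cells. Blastocysts held 184, 207, 235 and 273. Zfp637 reached 81.6 to 158 CPM in morulae from at most 0.739 in zygotes. Zfp239 stayed low in 2-cell embryos, at 2.65 to 5.00 CPM, and reached 71.5 ± 16.5 in morulae.

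Zfp748 was the single persistent gene, with stage means from 8.39 CPM in blastocysts to 16.2 in zygotes. Its zygote libraries held 14.6 to 18.6 CPM and its blastocyst libraries 6.34 to 11.2, so even here the ends did not overlap. Outside the classes, Zfp68, Zfp984, Zfp943 and Zfp600 had the widest range, and all of them were highest in 2-cell embryos. Zfp68 held 225, 231, 233 and 271 CPM in zygotes, 347, 380, 388 and 399 in 2-cell embryos and 10.99, 11.04, 19.1 and 23.3 in 4-cell embryos. Zfp984 was at 217.5 ± 72.2 CPM in 2-cell embryos and 14.8 to 27.2 in 4-cell embryos. Zfp943 and Zfp600 were at 70.8 ± 17.4 and 54.9 ± 15.1 CPM in 2-cell embryos and at most 3.23 and 1.97 in blastocysts. Reads of 33 of the 230 genes are uncertain between near-identical copies, since at least 20% of their transcript lies in other genes as identical stretches of at least 75 bases. The share was 95.9% for Zfp600 and 73.8% for Zfp984.

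The steps between stages show where transcript levels differed. Libraries were made from poly(A) RNA, so a step is a change of level in that RNA. Synthesis, decay and tail length were not measured. A gene was counted as higher or lower when its 4 libraries did not overlap those of the stage before and the means differed by at least 1 on the log2 scale. From zygote to 2-cell embryo, 67 Zfp genes (29.1%) were higher and 19 (8.26%) lower, where 27.8% and 10.8% of all genes were. All 17 genes of the 2-cell class and 34 embryonic genes were among the 67, and 17 of the 19 were maternal. From 2-cell to 4-cell embryo, 53 (23.0%) were higher and 88 (38.3%) lower, against 36.3% and 34.1% of all genes. The 88 held 47 maternal genes, all 17 of the 2-cell class and 22 of the 55 outside the classes, and 48 of the 53 were embryonic. Classes were set on these same libraries with the same cut of 1, so the splits by class follow largely from their rules. From GV to MII, 23 (10.0%) were higher and 45 (19.6%) lower, against 11.8% and 28.8%. From morula to blastocyst 25 (10.9%) were higher and 43 (18.7%) lower, against 18.2% and 8.99%. From MII oocyte to zygote 8 were higher and 3 lower (7.2% and 5.45% of all genes), and from 8 cells to morula 15 and 4 (7.65% and 3.3%). From 4 to 8 cells, 0 were higher and 8 lower, against 0.176% and 1.52% of all genes.

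The genes known to act on imprints and repeats did not share a timing. Zfp445, which keeps imprints together with Zfp57, was at 15.6 CPM in GV oocytes and 37.6 in 4-cell embryos. Zfp568, the repressor of a placental Igf2 transcript, stood at 13.5, 36.3, 18.8 and 17.7 CPM up to the 2-cell embryo and at 249.7 ± 28.8 CPM in 4-cell embryos, and at 239, 238 and 224 CPM in the stages after it. Zfp809, which silences proviruses, ran from 9.61 CPM in GV oocytes to 47.8 in 8-cell embryos. Zfp92 went the other way, from 25.7 ± 2.45 CPM in GV oocytes to 0 in blastocysts. Zfp932, a repressor of endogenous retroviral elements, peaked at 428 ± 100 CPM in 2-cell embryos and was at 23.5 in blastocysts. Its reads are uncertain, since 70.7% of its transcript is shared.

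Of 10 listed pluripotency and chromatin regulators, 7 passed the threshold. Beside Zfp42, Zfp143, which binds promoters and chromatin loop anchors, went from 12.5 CPM in zygotes to 128 ± 22.4 in 4-cell embryos and back to 33.6 in blastocysts. Zfp281, a regulator of the exit from naive pluripotency, was at 15.7 CPM in zygotes, 75.5 ± 7.95 in 2-cell embryos and 27.1 in 4-cell embryos. Zfp296 had 2 peaks, with 445 ± 38.7 CPM in GV oocytes, 40.5 ± 8.40 in MII oocytes and 307 in 4-cell embryos. Zfp292 reached 69.9 ± 13.5 CPM in 4-cell embryos from 1.30 in zygotes, and Zfp609 13.8 from 2.36. Zfp217 reached 44.0 CPM in morulae from 3.27 in zygotes.

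Of 10 genes listed for roles outside DNA binding, 8 passed, Zfp622 among them. Zfp207, a microtubule and kinetochore protein also named BuGZ, was among the steadiest up to the morula, with 290 to 373 CPM, and stood at 158 ± 20.0 CPM in blastocysts. Zfp106, an RNA-binding protein, reached 349 ± 14 CPM in blastocysts from 43.0 in GV oocytes. Zfp598, the ubiquitin ligase that marks collided ribosomes, was at 12.5 CPM in GV oocytes and 63.4 ± 8.09 in blastocysts. Zfp638, a silencer of unintegrated retroviral DNA, was at 154 CPM in MII oocytes, 177 in 4-cell embryos and 53.7 in blastocysts. Zfp830, which acts in splicing, was highest in GV oocytes at 89.5 ± 2.14 CPM. Zfp326, a splicing factor, and Zfp346, which binds double-stranded RNA, were at 20.4 ± 3.31 and 10.5 CPM in blastocysts.

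Position in the gradient was not used to choose the genes and was tested. In each gradient the mean CPM of the heavy fractions was compared with that of the light fractions, with limma on log2(CPM + 1) over all 15172 genes that passed the filter, all 230 Zfp genes among them. A gene was called at a Benjamini-Hochberg adjusted p under 0.05 and a difference of at least 1 on the log2 scale. In oocytes and zygotes the called Zfp genes were nearly all on the heavy side: 17 heavy and 0 light in GV oocytes, 28 and 3 in MII oocytes, and 40 and 0 in zygotes. Over all genes, 3.3% were heavy and 0.811% light in GV oocytes, 8.86% and 6.33% in MII oocytes, and 9.95% and 5.06% in zygotes. In blastocysts the balance lay the other way, with 6 Zfp genes heavy and 28 light, where 7.24% and 10.1% of all genes were. These calls leaned on single gradients: 1 of 17 in GV oocytes (Zfp616), 9 of 31 in MII oocytes, 11 of 40 in zygotes and 10 of 34 in blastocysts held without each gradient in turn. The number called without gradient A, B and C was 6, 2 and 10 in GV oocytes, 25, 12 and 21 in MII oocytes, 21, 34 and 22 in zygotes and 22, 17 and 24 in blastocysts.

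Fewer genes were called in 2-cell, 4-cell and 8-cell embryos, while morulae, with 26, had more calls than GV oocytes. In 2-cell embryos 5 were heavy and 1 light (1.52% and 2.02% of all genes), in 8-cell embryos 2 and 8 (1.08% and 4.03%), and in morulae 13 and 13 (5.06% and 6.29%). Of these 0 of 6, 0 of 10 and 6 of 26 held without each gradient in turn, and the number called without A, B and C was 1, 3 and 3, then 5, 1 and 7, then 24, 13 and 14. In 4-cell embryos limma called 0 (0.125% and 0.692% of all genes), while 15 of 230 Zfp genes had an unadjusted p under 0.05 and edgeR called 17 heavy and 19 light. Shares of all genes are not given for counts by unadjusted p or by edgeR, here and below. How particular such counts are to Zfp genes was not tested. Gradients of 1 stage differed more from each other in the 2-cell and 4-cell embryo, where limma gave the samples weights of 0.349 and 0.261, than in the blastocyst, with 2.80, and the difference in counts between stages was not tested. The counts depend on how the spread was modelled: edgeR with 1 dispersion over all stages called 0 Zfp genes in GV oocytes, 1 in MII oocytes, 2 in zygotes, 3 in morulae and 1 in blastocysts, and edgeR on the compared groups alone called 34, 34, 33, 2 and 15. With quantile normalization the splits were 28 heavy and 9 light in MII oocytes, 3 and 4 in 8-cell embryos and 11 and 24 in blastocysts.

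All genes of like level leaned the same way, mostly to a smaller extent. Among genes of at least 10 CPM in the transcriptomes of the stage, 17 of 138 Zfp genes (12.3%) were heavy in GV oocytes against 6.07% of all genes. The shares were 28 of 131 (21.4%) against 21% in MII oocytes and 38 of 127 (29.9%) against 23.4% in zygotes. Of these genes 0, 2 and 0 were light, against 1.26%, 4.18% and 3.07% of all. In blastocysts 22 of 115 (19.1%) were light against 12.6%, and 2 heavy against 10.3%. Shares were nearer to each other between these ends. In 2-cell embryos 5 of 150 were heavy and 1 light (2.64% and 1.3% of all), in 4-cell embryos 0 of 129 (0.181% and 0.406%), in 8-cell embryos 2 and 4 of 110 (1.55% and 2.62%), and in morulae 8 and 7 of 123 (7.96% and 5.23%). The median difference, heavy minus light, was 0.80 on the log2 scale in GV oocytes for Zfp genes and 0.30 for all genes at that level, 0.78 and 0.41 in MII oocytes, and 0.78 and 0.45 in zygotes. In blastocysts it was -0.32 and -0.07. Above 0 lay 109 of the 138 (79.0%, against 65.2% of all) in GV oocytes and 39 of the 115 (33.9% against 47.2%) in blastocysts. The box plot by stage shows these distributions side by side.

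**Figure D3:**
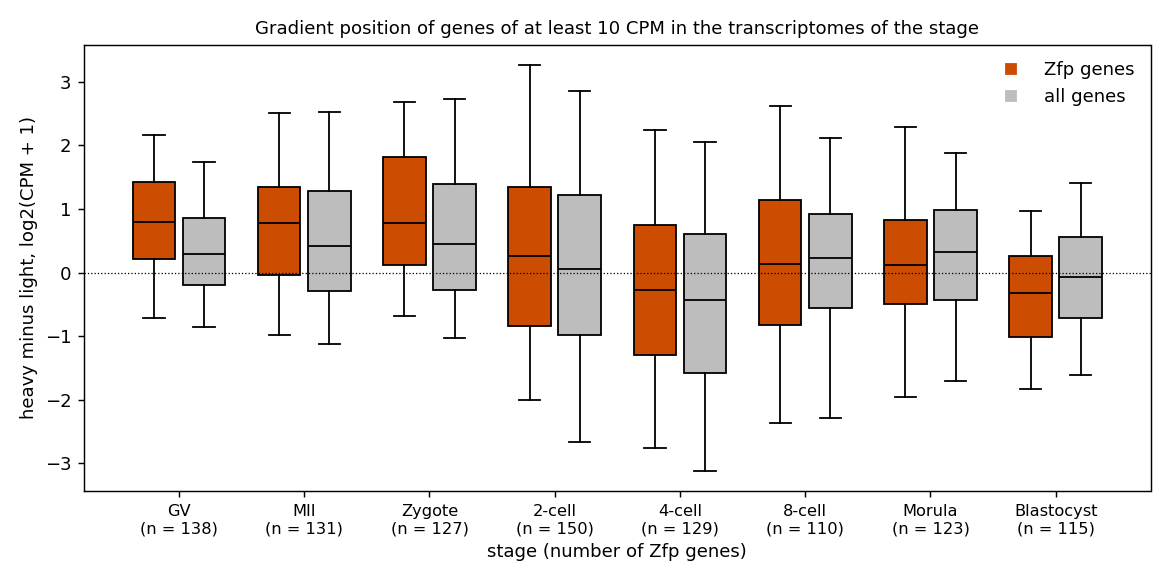
Difference between the heavy and light fractions (log2 scale, mean of 3 gradients) at each stage, for Zfp genes and for all genes of at least 10 CPM at that stage. Boxes span the quartiles with the median and whiskers run from the 5th to the 95th percentile. The Zfp median is 0.80 in GV oocytes and -0.32 in blastocysts.

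Each of the 4 larger timing groups held heavy genes in oocytes and zygotes, and the differences between them were not tested. Of the maternal genes of at least 10 CPM at the stage, 9 of 68 were heavy in GV oocytes, 15 of 59 in MII oocytes and 16 of 58 in zygotes. Of the embryonic genes at that level, 2 of 17, 4 of 20 and 3 of 16 were. The 2-cell class had 3 of 9, 2 of 9 and 4 of 10, and the genes outside the classes 3 of 43, 7 of 42 and 15 of 42. In blastocysts 2 of 13 maternal, 3 of 5 2-cell, 10 of 73 embryonic and 7 of 24 other genes at that level were light.

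Only Zfp616, Zfp449 and Zfp120 were heavy in GV oocytes, MII oocytes and zygotes alike, of 60 Zfp genes heavy in at least 1 of these stages. Zfp616 in GV oocytes had 33.7, 49.3 and 61.1 CPM in the heavy fractions of gradients A, B and C and 6.22, 5.56 and 7.86 in the light ones. The log2 difference was 2.67 (SE 0.39, limma adjusted p = 9.41e-05), and every heavy value lay above every light one. In MII oocytes the heavy values were 33.6, 28.4 and 41.9 and the light values 3.24, 2.88 and 3.94 (difference 3.02, SE 0.39, limma adjusted p = 3e-07). In zygotes gradient B was weaker, with 16.9 CPM against 5.73, while A and C had 77.9 against 4.39 and 66.4 against 4.07 (3.004, SE 0.40, limma adjusted p = 9.51e-07). Its call held in all 3 stages when any 1 gradient was left out.

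Zfp449, another maternal gene, had 72.2, 23.8 and 34.4 CPM in the heavy and 3.96, 3.65 and 2.12 in the light zygote fractions (3.27, SE 0.39, limma adjusted p = 6.46e-08). Its difference was smaller in GV oocytes (1.79, SE 0.38, limma adjusted p = 0.00388, lost without gradient A or B) and MII oocytes (1.93, SE 0.37, limma adjusted p = 0.000201). Zfp120 had 31.2, 21.7 and 35.0 CPM heavy and 3.99, 3.31 and 2.84 light in zygotes. Its differences were close in the 3 stages, 2.79, 2.76 and 2.77, with limma adjusted p = 0.00221, 0.000242 and 0.000391. The GV call of Zfp120 was lost without gradient A. No heavy value overlapped a light one for Zfp449 or Zfp120 at any of the 3 stages.

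Several other genes had large differences. Zfp820 and Zfp60 were called heavy in both MII oocytes and zygotes, Zfp51 in GV and MII oocytes, and Zfp235 in zygotes alone. Zfp820 in MII oocytes had 8.47, 18.2 and 18.9 CPM heavy and 0.148, 0.0753 and 0.0874 light (3.80, SE 0.74, limma adjusted p = 0.000232). Zfp235 in zygotes had 86.8, 33.6 and 64.5 against 0.483, 1.46 and 6.78 (4.26, SE 0.68, limma adjusted p = 1.54e-05). Zfp60 had 156, 95.2 and 227 CPM against 11.6, 5.93 and 14.3 (3.77, SE 0.52, limma adjusted p = 1.58e-06). Groups did not overlap for any of them. Zfp51 in GV oocytes had 22.9, 26.9 and 17.7 against 3.74, 1.41 and 2.54 (2.76, SE 0.84, limma adjusted p = 0.0481), a call lost without any 1 gradient.

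Zfp57 did not follow these genes. In GV oocytes its heavy and light values interleaved, with 470, 631 and 538 against 334, 725 and 501.2 CPM (0.13, limma adjusted p = 0.962). In MII oocytes it was light, with 422, 302 and 233 against 879, 701 and 567 (-1.18, SE 0.35, limma adjusted p = 0.0146). That call was lost without gradient B or C. In zygotes the heavy values of 1012, 698 and 835 CPM were again below the light values of 1733, 1425 and 1176, but the gene was not called (-0.77, limma adjusted p = 0.159). It was called light in 8-cell embryos, a call lost without gradient A or C. Without fraction 1, an alternative chosen after seeing the data, it was light in zygotes as well (-1.01, limma adjusted p = 0.0374). The MII and 8-cell differences were then -1.45 (limma adjusted p = 0.00134) and -2.79 (limma adjusted p = 0.0227). Along the fractions its zygote level peaked at fraction 4, with 2654 ± 796 CPM (SD, n = 3), against 376 ± 23.1 in fraction 1 and 816 ± 341 in fraction 10. Zfp24 was the other MII gene with the largest light difference (-1.56, SE 0.48, limma adjusted p = 0.0203), a call lost without gradient A or B.

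**Figure D4:**
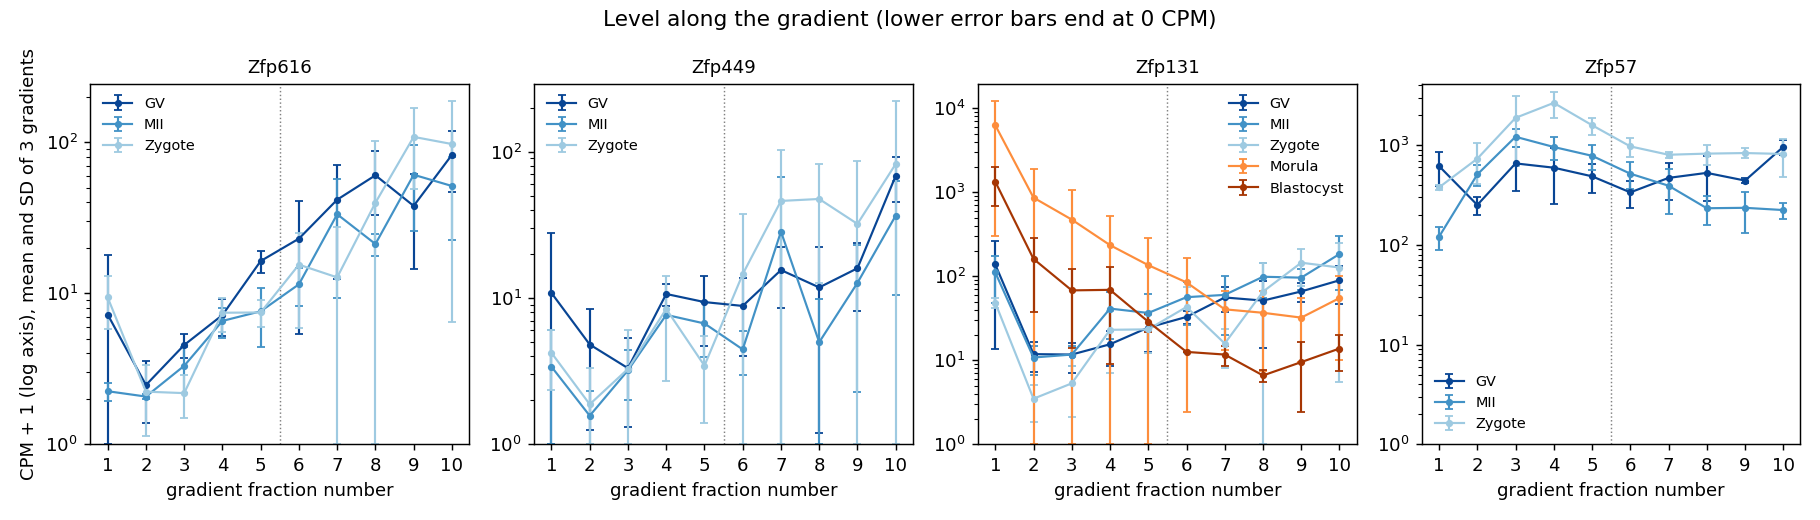
Mean CPM plus 1 (log axis, bars are the SD of 3 gradients) along gradient fractions 1 to 10 for Zfp616, Zfp449, Zfp131 and Zfp57. Profiles are those of GV oocytes, MII oocytes and zygotes, and for Zfp131 also of morulae and blastocysts. Zfp57 in zygotes peaks at fraction 4 with 2654 CPM. Zfp131 is higher in fraction 1 of morulae and blastocysts than in that of zygotes.

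In 2-cell embryos the 6 called genes had large differences and wide spread. Zfp932 had 189, 10.4 and 138 CPM heavy and 0.0222, 0 and 2.90 light (5.40, SE 1.16, limma adjusted p = 0.00551, lost without gradient A or C). Zfp942 had 111, 25.6 and 59.6 against 0.121, 0 and 0.567 (5.55, SE 1.62, limma adjusted p = 0.0442, lost without any 1 gradient, and at adjusted p = 0.103 with each gradient as a block). Zfp511 was the light gene, with 0.414, 3.02 and 0.329 against 29.7, 68.1 and 75.2 (-4.80, SE 1.00, limma adjusted p = 0.00403, lost without C). In none of these did the groups overlap, yet no 2-cell call held through every omission of a gradient.

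From the 8-cell embryo on, Zfp131, Zfp9, Zfp113 and Zfp236 were light at all 3 stages, of 36 Zfp genes light at 1 or more. Zfp131 had 95.7, 29.4 and 21.2 CPM in the heavy and 3453, 613 and 730 in the light fractions of morulae (-4.85, SE 0.61, limma adjusted p = 1.72e-07). In blastocysts it had 9.50, 9.74 and 10.2 against 533, 263 and 200 (-4.82, SE 0.40, limma adjusted p = 5.29e-12). In zygotes the same gene had been heavy, with 42.6, 44.0 and 148 against 25.1, 17.6 and 16.3 (1.71, SE 0.50, limma adjusted p = 0.0153, lost without gradient B or C). Its transcriptome level was 209 CPM in zygotes, 409.8 ± 60.4 in 8-cell embryos and 113.6 in blastocysts.

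In the equal-weight mean of CPM, most of the late light signal of Zfp131 came from fraction 1, the first fraction of the gradient. The amount of its transcript in each fraction was not measured. There it reached 5834 ± 549 CPM in 8-cell embryos, 6291 ± 5988 in morulae and 1338 ± 643 in blastocysts, against 47.3 ± 6.3 in zygotes. Fraction 1 libraries were small in the embryos, with 0.184 to 0.396 M reads at the 8-cell stage and 0.418 to 0.782 M in morulae, and larger in blastocysts, with 2.44 to 4.39 M. Without fraction 1, an alternative chosen after seeing the data, Zfp131 was still light in morulae (-2.69, limma adjusted p = 0.0116) and blastocysts (-2.66, limma adjusted p = 6.11e-05), but not called in 8-cell embryos (-1.82, limma adjusted p = 0.525). It was then heavy in GV oocytes, MII oocytes and zygotes, at 1.89, 2.06 and 2.37.

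Zfp9 leaned on fraction 1 more. In blastocysts it had 2.04, 0.867 and 1.09 CPM heavy and 17.0, 12.04 and 10.2 light (-2.60, SE 0.36, limma adjusted p = 5.7e-07), and without fraction 1 the difference was -0.85 (limma adjusted p = 0.0915). In morulae it was -3.67 (limma adjusted p = 4.22e-06) with and -1.55 (limma adjusted p = 0.0578) without. Zfp113 was at -4.37 in morulae (limma adjusted p = 7.82e-06) and -2.85 (limma adjusted p = 0.00646) without fraction 1, and at -2.35 and -1.14 (limma adjusted p = 0.0860 without) in blastocysts. Zfp236, with 30 finger patterns, was light without fraction 1 at all 3 stages. Its values in 8-cell embryos were 2.03, 0.738 and 5.85 CPM heavy against 45.2, 94.1 and 33.2 light, with 0 in fraction 1 and 117 ± 112 in fraction 3. Its differences were -4.01, -2.42 and -2.60 with fraction 1 and -4.32, -2.38 and -2.78 without it, and its 8-cell and morula calls were lost without gradient B. The 8-cell call of Zfp9 was lost without B, and those of Zfp113 and Zfp131 without B or C, while the morula and blastocyst calls of these 3 genes held without any 1 gradient.

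Leaving out fraction 1 moved the counts unevenly. In GV oocytes the heavy calls went from 17 to 53, all 17 among them, where 10.2% of all genes were then heavy and 2.16%, with 2 Zfp genes, light. Fraction 1 libraries of GV oocytes held 0.0102 to 7.66 M reads and entered the light mean with equal weight. The part of this depth in the change was not tested. In morulae the light calls went from 13 to 3 (3.25% of all genes), in 8-cell embryos from 8 to 3 (1.08%) and in blastocysts from 28 to 21, of which 19 were shared (6.11%). In MII oocytes and zygotes 25 of 28 and 38 of 40 heavy calls were shared. Zfp616, Zfp449 and Zfp120 stayed heavy at all 3 early stages.

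Later embryos also had heavy genes. Zfp868 in morulae had 8.64, 6.20 and 13.2 CPM against 0.191, 0.503 and 0.0875 (2.99, SE 0.63, limma adjusted p = 0.000789), without overlap. Zfp97 in morulae had 16.7, 2.96 and 3.60 against 0.234, 0.00518 and 0.00746 (2.67, SE 0.60, limma adjusted p = 0.00186, lost without gradient A). The reads of Zfp97 are uncertain, with 90.0% of its transcript shared. Zfp956 in blastocysts had 15.8, 38.1 and 18.3 against 2.11, 8.19 and 11.7 (1.71, SE 0.52, limma adjusted p = 0.0137, lost without A or B). Zfp606 followed at 1.55 (limma adjusted p = 0.03), a call lost without any 1 gradient. In 8-cell embryos the heavy calls were Zfp655 (2.95, limma adjusted p = 0.0262), whose heavy and light values overlapped, and Zfp981 (2.23, limma adjusted p = 0.014). The second light gene there was Zfp777 (-4.03, limma adjusted p = 0.0276), with at most 0.128 CPM heavy and 12.1 to 22.5 light. The calls of Zfp981 and Zfp777 were lost without any 1 gradient, that of Zfp655 without A or B. The reads of Zfp981 are also uncertain, with 52.1% of its transcript shared.

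Across stages, 12 genes were heavy at some stage up to 2 cells and light at some later one: Zfp207, Zfp638, Zfp60, Zfp952, Zfp709, Zfp873, Zfp979, Zfp932, Zfp664, Zfp141, Zfp131 and Zfp997. They include the kinetochore protein Zfp207, at 2.30 in zygotes and -1.16 in blastocysts (the second lost without gradient A or C), and Zfp638, at 2.15 in MII oocytes and -1.94 in blastocysts (both lost without A or B). Zfp932 had 10.5, 9.34 and 9.69 CPM heavy and 40.9, 41.8 and 30.4 light in blastocysts (-1.82, SE 0.41, limma adjusted p = 0.000978). Zfp873 was heavy in zygotes at 2.198 (lost without gradient A) and light in blastocysts at -3.06, but at -1.27 in blastocysts (limma adjusted p = 0.0940) without fraction 1. At no stage were 128 of the 230 genes called. Counts across stages, here and above, are given for Zfp genes only, so how particular they are to these genes was not tested. The dot plot of genes called on the same side at 2 or more stages lists 38.

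**Figure D5:**
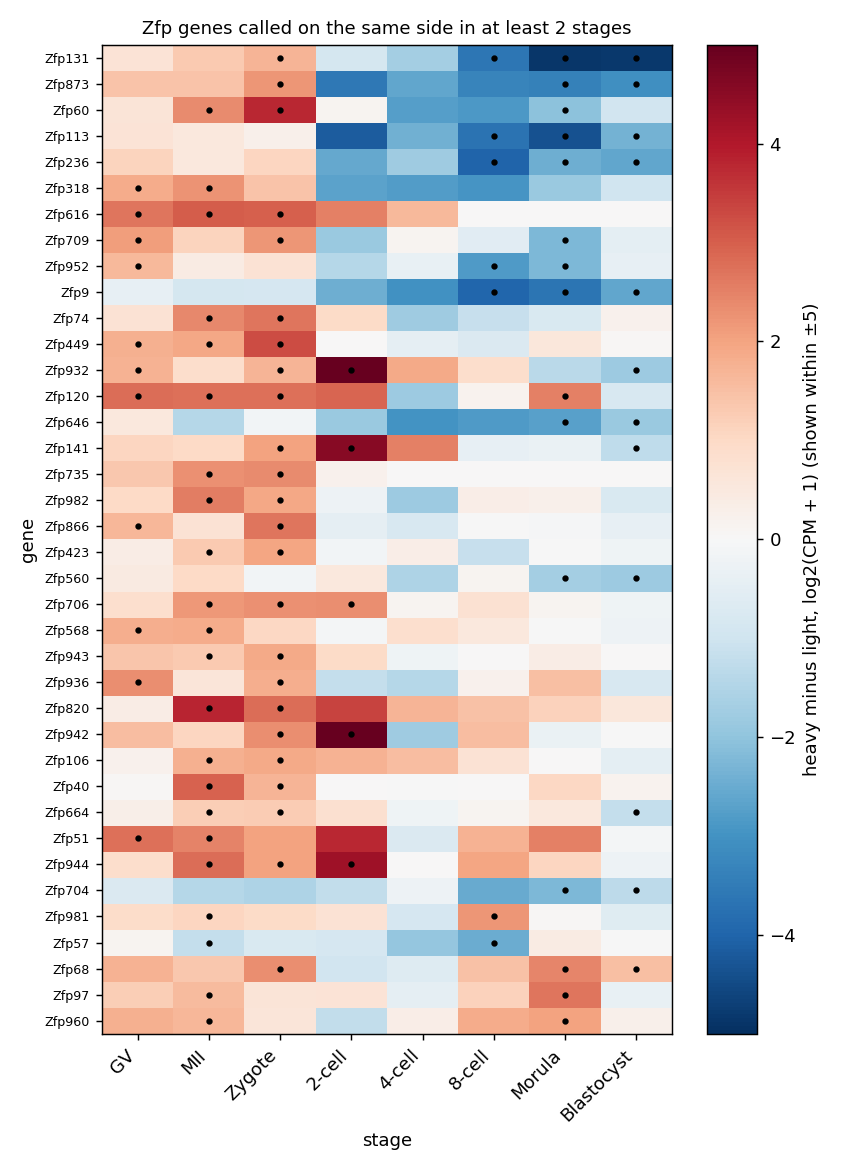
Difference between heavy and light fractions (colour, log2 scale) at the 8 stages for the 38 Zfp genes called on the same side at 2 or more stages, with a dot where a gene was called. Zfp616, Zfp449 and Zfp120 are called heavy in GV, MII and zygote, and Zfp113, Zfp236, Zfp9 and Zfp131 light in 8-cell, morula and blastocyst.

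Among the listed regulators, Zfp568 was heavy in GV and MII oocytes (1.82 and 1.87), at stages where its transcriptome level was 13.5 and 36.3 CPM. Zfp143 was heavy in GV oocytes (2.46), Zfp106 in MII oocytes and zygotes (1.78 and 1.88) and Zfp326 in morulae (1.64). Zfp932 was heavy in GV oocytes (1.73) and zygotes (1.69). Zfp281 was light in blastocysts (-2.17). All of these passed the limma call, but only the MII call of Zfp568 held without each gradient in turn. The others were lost without A or B (Zfp143 and Zfp932 in GV oocytes), A or C (Zfp932 in zygotes), or B or C (the rest).

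The heavy fractions were then compared between stages, as a measure of what the heavy side held. From GV to MII, 4 Zfp genes were higher and 26 lower (4.15% and 13.6% of all genes), from zygote to 2-cell embryo 5 and 17 (3.15% and 8.46%), and from 2-cell to 4-cell embryo 3 and 11 (7.56% and 10.9%). With quantile normalization the splits were 9 and 16, 9 and 8, and 7 and 12. Without each gradient in turn 4 of 30, 1 of 22 and 2 of 14 calls held, and the number called without A, B and C was 17, 8 and 22 at the first step, 6, 10 and 8 at the second and 13, 8 and 9 at the third. The median Zfp gene changed by -0.23, -0.76 and -0.00 on the log2 scale, and the median gene of the table by -0.13, -0.51 and -0.06. Of the 17 that fell into the 2-cell stage 10 were maternal, and all 3 that rose into the 4-cell stage were embryonic.

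At maturation Zfp296 had the largest fall, from 2359, 1323 and 2299 CPM in GV oocytes to 130, 140 and 268 in MII oocytes (-3.50, SE 0.34, limma adjusted p = 3.31e-07). It was called without any 1 gradient, and its transcriptome went the same way, from 445 to 40.5 CPM. Zfp623 fell from 7.68, 14.8 and 3.98 to 0.159, 0 and 0.379 (-2.91, SE 0.63, limma adjusted p = 0.00219, lost without A or B). Zfp40 rose from 0, 0 and 1.32 to 5.81, 7.64 and 8.36 (2.63, SE 0.62, limma adjusted p = 0.00407, lost without B), and Zfp992 from 0.952, 1.85 and 1.63 to 11.4, 6.12 and 10.5 (2.04, SE 0.43, limma adjusted p = 0.00162). The heavy groups of these 4 genes did not overlap between the stages. Of the transcript of Zfp992, 53.3% is shared with other genes.

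From zygote to 2-cell embryo Zfp449, so heavy before, fell from 72.2, 23.8 and 34.4 CPM to 0, 0.0404 and 0.0172 (-5.30, SE 0.79, limma adjusted p = 0.000103), called without any 1 gradient. Its transcriptome stood at 132.3 ± 9.74 CPM in zygotes and 10.5 ± 1.86 in 2-cell embryos. Zfp866 fell from 26.9, 31.95 and 28.7 CPM to 0 in all 3 gradients, at least 1640-fold lower against a floor of 3 reads over the group (lost without B, and at least 988-fold without C). Zfp707 rose from 12.2, 8.16 and 17.4 to 326, 110 and 295 (4.08, SE 1.04, limma adjusted p = 0.012, lost without A or B). Zfp599 rose from 0 in all 3 gradients to 10.6, 185 and 1.89 CPM, at least 6050-fold higher against the same kind of floor. The call was lost without any 1 gradient, and gradient B carried the bound, which was at least 409-fold without it.

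From 2-cell to 4-cell embryo Zfp750, known from epidermal differentiation, fell from 182, 62.8 and 238 CPM to 0 in all 3 gradients, at least 9380-fold lower (at least 4170-fold without gradient C). Zfp68 fell from 235, 148 and 8.40 CPM to 0, at least 7610-fold lower (at least 3680-fold without A and 4310-fold without B, both of which ended the call), while its transcriptome still held 16.1 CPM. Zfp568, the Igf2 repressor, rose from 0, 8.66 and 0.119 to 102, 143 and 148 (5.89, SE 1.11, limma adjusted p = 0.000674). Zfp622 rose from 2.27, 0 and 0.271 to 6.55, 88.3 and 168 (4.91, SE 1.06, limma adjusted p = 0.00227, lost without B or C). The groups of all 4 genes were apart. Zfp750 and Zfp568 were called without any 1 gradient.

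The difference between heavy and light fractions was also compared between stages, and it changed for few Zfp genes. From GV to MII, 2 Zfp genes moved towards heavy and 0 towards light (0.765% and 1.05% of all genes). Zfp40 moved by 2.90 (SE 0.67, limma adjusted p = 0.011), from 0, 0 and 1.32 heavy against 0.528, 0.107 and 0.218 light CPM to 5.81, 7.64 and 8.36 against 0.0209, 0.148 and 0. Zfp706, which acts in the exit from pluripotency, moved by 1.33 (SE 0.32, limma adjusted p = 0.0165), and its light level went from 139, 128 and 146 CPM to 38.0, 36.3 and 29.2. From zygote to 2-cell embryo 0 moved towards heavy and 2 towards light (0.732% and 0.837%). Zfp873 moved by -5.77 (SE 1.41, limma adjusted p = 0.0231, 0.0516 with each gradient as a block), from 88.3, 32.4 and 71.4 heavy against 9.56, 12.6 and 14.5 light to 13.3, 9.20 and 9.27 against 232, 114 and 92.7. Zfp511 moved by -4.26 (SE 1.09, limma adjusted p = 0.0307). From 2-cell to 4-cell embryo limma called 0 (0.0791% and 0.224%), with 8 of 230 Zfp genes at an unadjusted p under 0.05 and 41 called by edgeR. The shares of all genes at an unadjusted p and with edgeR are not given, so how particular these numbers are to Zfp genes was not tested. With each gradient as a block the counts were 3 towards heavy and 2 towards light at maturation, and 0 and 1 into the 2-cell stage. Zfp873 went from the heavy to the light side, while the estimated differences of Zfp706 and Zfp511 kept their sign and grew. Zfp40 had no clear side in GV oocytes, where its difference was 0.06 and its heavy and light values interleaved at low levels. The call of Zfp40 was lost without gradient B or C, that of Zfp706 without A or B, and those of Zfp873 and Zfp511 without any 1 gradient.

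Transcripts of the proteins that KRAB zinc fingers work through were tested in the transcriptomes with limma over 32 libraries. Whether this set changed more often than all genes was not tested. Of 24 listed partner genes, 5 were higher and 3 lower from GV to MII (9.11% and 25.4% of all genes), 4 and 4 from zygote to 2-cell embryo (25.2% and 8.71%), and 7 and 3 from 2-cell to 4-cell embryo (31.8% and 32.9%). With quantile normalization the splits were 7 and 2, 3 and 7, and 7 and 4. Trim28, the corepressor that KRAB domains bind, was at 32.8 ± 4.85 CPM in GV oocytes and 72.3 ± 24.2 in MII oocytes (1.07, SE 0.14, limma adjusted p = 2.19e-08), a call lost without library A (0.90). It was at 56.6 ± 5.47 CPM in zygotes and 29.1 ± 8.95 in 2-cell embryos, a change of -0.98 that was not called, then at 419.9 ± 66.4 in 4-cell embryos (3.84, SE 0.22, limma adjusted p = 3.44e-18) and 573.8 in blastocysts. Setdb1, the methyltransferase it recruits, stayed between 26.0 and 57.2 CPM over the 8 stages and was called at none of these steps.

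Other partners changed at each of the 3 steps. Chaf1b, a subunit of the chromatin assembly factor, fell from 57.0 ± 2.66 CPM in GV to 2.30 ± 0.266 in MII oocytes (-4.14), and Mbd3, a subunit of the NuRD complex, fell by 2.73. From zygote to 2-cell embryo the deacetylase Hdac1 rose from 6.53 to 119.7 ± 23.2 CPM (3.99), and the maintenance methyltransferase Dnmt1 fell from 362.1 to 30.6 (-3.53). From 2-cell to 4-cell embryo the modifier gene Sumo2 rose from 64.2 to 1185 ± 99.7 CPM (4.20) and Uhrf1, which guides Dnmt1 to DNA, fell from 57.8 to 5.84 (-3.12). All passed the limma call.

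Sequence features differed between the timing classes. The median GC content of the coding sequence was 45.8% in the maternal class, 39.4% in the 2-cell class, 40.8% outside the classes and 50.9% in the embryonic class. The median number of finger patterns was 11, 12, 11 and 8.5 in the same order. The median coding length was 1719 bases, against 1380 for all genes at the threshold. Across genes, Spearman's rho between the number of finger patterns and the difference of heavy and light fractions was 0.30 in GV oocytes (135 genes), 0.26 in MII oocytes (128) and 0.08 in zygotes (123). Genes share libraries and are not replicates. Genes with at least 8 patterns had a median difference of 0.87 in GV oocytes (92 genes) against 0.26 for those with fewer (43), and of 1.008 (88) against 0.43 (40) in MII oocytes. The medians were 0.78 (87) and 0.77 (36) in zygotes, 0.24 (101) and 0.27 (45) in 2-cell embryos, and -0.52 (64) and -0.15 (48) in blastocysts. Coding length itself correlated with position over all genes, with rho 0.29 in GV oocytes, 0.26 in MII oocytes, 0.30 in zygotes and -0.24 in blastocysts. Among the Zfp genes alone it was 0.10, 0.21, 0.17 and -0.22 at these stages. The parts of length and finger number were not separated.

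Zfp genes lie in clusters, and neighbours often had like timing. With the order of genes in the RefSeq annotation, 227 were placed and 56 pairs were direct neighbours, which involved 84 genes. Both genes were in the same timing class in 26 pairs (46.4%), against 29.4% over all pairs of Zfp genes. Neighbours share copies, so the reads of some pairs are uncertain. Examples are the run of Zfp677, Zfp54 and Zfp51, all of the 2-cell class, the run of Zfp111, Zfp109 and Zfp108, all maternal, and the embryonic pair Zfp637 and Zfp239.

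Promoters from 250 bases before to 50 after the start were in the RefSeq table (GRCm38.p6) for 189 of the 230 genes. The core of the YY1 motif, AANATGGC on either strand, was found in 29 of them (15.3%), against 6.96% of all 27025 promoters and 10.8% of 8466 genes of the expression table at the threshold. The CCAAT box was found in 56.6% (41.1% and 43.9%). It was in 12 of 15 promoters of the 2-cell class, 35 of 65 maternal, 34 of 64 embryonic and 26 of 44 outside the classes. The core TAATTA of the oocyte factor Nobox was found in 13.2% (6.12% and 3.69%). It was in 13 of 44 outside the classes, 5 of 65 maternal, 5 of 64 embryonic and 2 of 15 of the 2-cell class. GGATTA was found in 9.52% (8.14% and 7.38%), TATAAA in 8.99% (15.7% and 8.75%) and the palindromic core of the motif of the 2-cell factor Dux in 0 of 189 (0.0407% and 0.0118%). The median ratio of observed to predicted CpG was 0.623, against 0.775 for the table's genes and 0.389 for all promoters. A match is a run of letters and was not tested as a binding site.

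One promoter with a YY1 core is shown for each large timing group, so that the sites can be compared by place: maternal Zfp383, Zfp566 of the 2-cell class, embryonic Zfp292 and Zfp68 outside the classes. Capitals mark YY1 cores and CCAAT boxes on either strand. Each runs 5′ to 3′ on the strand of the gene, with coordinates on GRCm38.p6. They are chr7:29908267-29908566 (plus strand) for Zfp383, chr7:30090461-30090760 (minus) for Zfp566, chr4:34882899-34883198 (minus) for Zfp292 and chr5:138619694-138619993 (minus) for Zfp68.
Zfp383: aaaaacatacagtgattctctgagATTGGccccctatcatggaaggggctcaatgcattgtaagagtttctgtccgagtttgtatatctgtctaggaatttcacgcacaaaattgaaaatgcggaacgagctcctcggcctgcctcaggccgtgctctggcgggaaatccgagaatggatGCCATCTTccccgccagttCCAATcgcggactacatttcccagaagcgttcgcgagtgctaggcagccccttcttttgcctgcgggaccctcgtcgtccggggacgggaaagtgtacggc
Zfp566: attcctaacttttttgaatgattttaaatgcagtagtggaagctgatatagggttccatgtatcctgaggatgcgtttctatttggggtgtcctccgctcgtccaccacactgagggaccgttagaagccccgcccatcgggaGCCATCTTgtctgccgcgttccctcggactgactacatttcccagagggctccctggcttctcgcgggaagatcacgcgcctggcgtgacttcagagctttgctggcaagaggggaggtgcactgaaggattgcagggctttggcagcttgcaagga
Zfp292: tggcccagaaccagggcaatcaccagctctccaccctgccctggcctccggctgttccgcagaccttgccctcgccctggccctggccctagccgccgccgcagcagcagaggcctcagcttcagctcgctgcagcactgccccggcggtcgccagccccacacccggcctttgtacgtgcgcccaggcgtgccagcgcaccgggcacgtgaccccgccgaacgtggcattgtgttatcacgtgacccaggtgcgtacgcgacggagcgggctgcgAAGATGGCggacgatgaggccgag
Zfp68: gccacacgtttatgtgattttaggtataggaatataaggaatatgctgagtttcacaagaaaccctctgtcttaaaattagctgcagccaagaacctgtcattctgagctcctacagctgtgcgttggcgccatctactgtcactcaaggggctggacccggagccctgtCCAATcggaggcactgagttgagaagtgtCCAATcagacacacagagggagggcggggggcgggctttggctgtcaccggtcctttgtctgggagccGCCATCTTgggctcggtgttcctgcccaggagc
The YY1 core lay 70 bases before the start in Zfp383 and 107 before it in Zfp566, and 26 and 17 bases after the start in Zfp292 and Zfp68. Zfp383 and Zfp68 each had 2 CCAAT boxes.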

How the data were processed

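Poly(A) RNA of 272 libraries was sequenced after Smart-seq amplification and Nextera tagmentation, as paired ends, per the labels' protocols: 32 transcriptomes and 240 gradient fractions. Reads were handled with Trim Galore 0.6.7, FastQC, HISAT2 2.2.1, featureCounts 2.0.1 and edgeR on GRCm39, per the submitters' processing notes, which give no role or order. The authors deposited 1 table of CPM values per gene symbol, with no length scaling, and no gene coordinates of GRCm39 are printed. The table held 15854 symbols, and of 76 groups with identical values (159 symbols) 1 symbol each was kept, which left 15771. Because of these repeats 9 deposited columns sum to more than CPM allows and were recorded as signal. The authors had scaled these signal values as the rest, and they were used as CPM. Values came out as whole reads for 100% of values in every library, within 0.05 reads. Reads of fraction 7 of the 2-cell gradient B were left out of the count models, since 1 read there is close to the rounding step. The columns of the 2-cell transcriptomes are lettered E to H, unlike the labels (A to D), and were used without a replicate letter.

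For each gradient the CPM of fractions 6 to 10 and of 1 to 5 was averaged with equal weight. Tests used limma 3.58.1 in R 4.3.3 (lmFit, eBayes with trend, arrayWeights with a spread per stage) on log2(CPM + 1), a scale that understates changes of low genes. Genes entered at 1 CPM in 3 gradient means or 4 libraries, the size of a group. One fit over all stages was made for heavy against light (48 means), the heavy fractions (24 means) and the partners (32 libraries). P-values were adjusted by Benjamini-Hochberg over all genes. The fit was also run on simulated data, in which only genes of at least 10 CPM at every stage were changed and heavy and light were drawn independently. That setting does not cover genes of low level or the shared gradient of heavy and light, and no result here rests on it. Alternatives were edgeR 4.0.16 on recovered reads (rounded to whole numbers), quantile normalization, a pseudocount of 0.25, no filter, 1 common spread, only the groups compared, fractions 7 to 10 against 1 to 4, the gradient as a block and each replicate left out. Leaving out fraction 1, and edgeR on the compared groups alone, were added after seeing the data. Over 288 pairs of replicates a chi-square test per degree of freedom was at least 2.55 (median 270), so no library was counted as a repeat. Heavy and light means of 1 letter come from the same gradient, and their deviations from the group means correlated at 0.00776 to 0.253 (median 0.0973, 24 gradients), while letters of consecutive stages (-0.0604 to 0.0896, own letter best in 11 of 21) and of GV and MII transcriptomes (-0.0175 to 0.0277) share only a name.

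A finger pattern was a run of codons Cys, 2 to 4 others, Cys, 12 others, His, 3 to 5 others, His, in the longest GENCODE M21 coding sequence. The search used Python 3.11.15 with pandas 2.3.3. Genes named are those with the widest range in each timing class, the 2 called genes with the largest difference on each side of each stage and step, all listed regulators and the genes called at several stages. The genes and lists were chosen with earlier results of these data known. One further Zfp symbol is not reported here. Amplified reads carry no molecular identifiers, so floors cover counting error only.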

Additional observations from a re-analysis of the deposited data

Results flagged for a closer look

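In 121 groups of 4 transcriptome libraries of 17 Zfp genes, 9 had a library set apart from the other 3 by Dixon's criterion. Chance flags about 1 in 20 groups. In 4-cell embryos, library D of Zfp735 held 2.13 CPM where the others held 0.155 to 0.343, and library A of Zfp622 held 429.8 CPM where the others held 278 to 304. In morulae, library A of Zfp735 held 1.013 CPM, the others 0 to 0.136. In 8-cell embryos, library D of Zfp57 held 15.5 CPM, the others 7.31 to 8.71. In zygotes, library C of Zfp709 held 44.7 CPM, the others 29.9 to 30.9. In 2-cell embryos, library H of Zfp239 held 2.65 CPM, the others 4.82 to 5.00. In MII oocytes, library A of Zfp984 held 60.03 CPM, the others 93.0 to 97.8. In blastocysts, library D held 7.93 CPM of Zfp984 (others 6.10 to 6.34) and 3.23 CPM of Zfp943 (others 0.952 to 1.2).

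For 4 Zfp genes the difference between heavy and light fractions itself differed between consecutive stages by limma. From GV to MII oocytes it changed by 2.90 for Zfp40 (from 0.06 to 2.96, limma adjusted p = 0.011) and by 1.33 for Zfp706 (from 0.83 to 2.16, limma adjusted p = 0.0165). From zygote to 2-cell embryo it changed by -4.26 for Zfp511 (from -0.53 to -4.80, limma adjusted p = 0.0307) and by -5.77 for Zfp873 (from 2.198 to -3.57, limma adjusted p = 0.0231).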

How the results depend on the processing

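Counts of called Zfp genes in GV, MII, zygote, 2-cell, 4-cell, 8-cell, morula and blastocyst samples were 17, 31, 40, 6, 0, 10, 26 and 34. Leaving out 1 replicate gave 2 to 10, 12 to 25, 21 to 34, 1 to 3, 0 to 0, 1 to 7, 13 to 24 and 17 to 24. With edgeR over all stages they were 0 (GV), 1 (MII), 2 (zygote), 33 (2-cell), 36 (4-cell), 3 (morula) and 1 (blastocyst). With edgeR on the groups compared they were 34 (GV), 0 (2-cell), 0 (8-cell), 2 (morula) and 15 (blastocyst). With 1 common spread they were 0, 5, 7, 27, 25, 20, 12 and 4 in the order of stages. With only the compared groups in limma they were 6 (GV), 2 (2-cell) and 3 (8-cell), with a pseudocount of 0.25, 10 (GV), and without fraction 1, 55 (GV), 4 (8-cell) and 15 (morula).

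Changes in the difference between heavy and light fractions numbered 2 (GV to MII), 2 (zygote to 2-cell) and 0 (2-cell to 4-cell), and 0 to 1, 0 to 2 and 0 to 0 with 1 replicate left out. They were 0, 15 and 41 with edgeR, 4 and 1 (first and second step) with edgeR on the groups compared, and 0, 11 and 16 with 1 common spread. At the first step they were 6 without fraction 1, 1 with only the groups compared, 4 with quantile normalization and 5 with the replicate block, and at the second 1 with quantile normalization and 1 with the replicate block. The block ended the calls of Zfp942 in 2-cell embryos and of the change of Zfp873, and no other call of a gene chosen by the rule.

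Changes of the heavy fractions numbered 30, 22 and 14 at the same steps, and 8 to 22, 6 to 10 and 8 to 13 with 1 replicate left out. They were 1, 38 and 84 with edgeR, 17, 11 and 8 with edgeR on the groups compared, and 4, 44 and 52 with 1 common spread. Partners called numbered 8, 8 and 10, and 7 to 8, 8 to 10 and 10 to 11 with 1 library left out. Setdb1 changed sign without a call: it was at 0.080 (edgeR) and 0.10 (quantile normalization) from GV to MII, and from zygote to 2-cell embryo at -0.27 (edgeR), -0.19 (quantile normalization), -0.01 without library E and -0.0794 without H (0.14 at most with another library left out). The fall of Trim28 at that step was called with quantile normalization (-1.27).

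With 1 library left out the classes held 70 to 75 maternal, 15 to 24 2-cell, 83 to 85 embryonic, 0 to 1 persistent and 51 to 59 other genes. With a difference of 2 in place of 1 the 2-cell class held 4 and the persistent class 35, and at 20 CPM the persistent class held 0. Of the genes chosen by the rule, 26 values stayed on their side of the threshold with edgeR and 22 did not, against 46 and 2 with quantile normalization, beside the reversals and gains. The cause of these differences was not tested. With 3 gradients a stage, and fraction libraries down to 0.0102 M reads, small differences were not detectable.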
